A study of Mus musculus with 12 samples.

Results

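The genes described here are 40 transcripts of the unfolded protein response and the integrated stress response, measured by RNA sequencing in brown adipocytes exposed to the insecticide chlorpyrifos (CPF). They were listed by name and kept where the mean over the 12 libraries was at least 10 normalized counts, and all 40 of the 40 listed genes met that minimum, out of 14775 genes in the table and 13531 that met it. By role they comprise 7 stress sensors and upstream factors, 17 targets of the transcription factor ATF4, 12 chaperones and folding enzymes of the endoplasmic reticulum (ER), and 4 genes of ER-associated degradation. The rule itself uses names and mean levels only, although the names were listed with earlier results of these data known.

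The cells were TMCON cells, an immortalized line of murine brown preadipocytes, on day 9 of differentiation (2 days in induction medium, then 7 days in maintenance medium). Both groups spent the last 4 h in Krebs-Ringer bicarbonate buffer with fatty-acid-free albumin in place of medium, 1 with 1 pM CPF and the other with the vehicle dimethyl sulfoxide. The comparison is limited to 1 immortalized line, 1 dose and 1 time, and the buffer was shared by both groups. Each group had 6 libraries, numbered 1 to 6. Nothing in the labels or methods states that they are separate cultures, and every p-value below therefore reflects only how far libraries differ, which may be technical variation.

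Proteins that enter the secretory pathway fold in the ER with the help of chaperones. When unfolded proteins accumulate, 3 sensors in the ER membrane respond: PERK (Eif2ak3) phosphorylates the initiation factor eIF2α, IRE1α (Ern1) splices Xbp1 mRNA, and ATF6 is cut to release a transcription factor. PERK shares eIF2α with kinases that sense amino acid shortage, double-stranded RNA or heme deficiency, and together they form the integrated stress response, in which general translation slows while Atf4 mRNA is translated. ATF4 then induces genes of amino acid synthesis and transport and of the stress-induced transcription factors CHOP (Ddit3) and ATF3, whereas ATF6 and spliced XBP1 act on chaperones and on degradation. In brown fat the ER also adapts to cold and to lipid load, and the IRE1α and XBP1 branch has been linked to Ucp1 transcription. The table gives 1 value per gene, so the splicing of Xbp1, the translation of Atf4 and the cleavage of ATF6 were not measured.

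The DNA letters linked to these 2 arms are shown first. They occurred mostly in different lists, but only part of a list held them, and the sensors and upstream factors held none. RefSeq start sites on the GRCm38.p6 build gave promoters for 36 of the 40 genes (250 bases before to 50 after the start), and Atf6, Cth, Slc7a5 and Manf had none. The ER stress response element (ERSE, the letters CCAAT, then any 9 bases, then CCACG, searched on both strands) is bound by the factor NF-Y at its first part and by ATF6 or XBP1 at its last. It was found in the promoters of 7 of the 36 genes, against 0.119% of 32851 promoters of the same length. Of the 11 chaperone and folding genes with a promoter, 6 held it, and the 7th was Syvn1 among the degradation genes. The 8 matches are printed in the direction of the element, in 30 bases with the element in capitals; Hsp90b1 has 2.
Calr, chr8:84847069-84847098, plus strand: tatgggCCAATGAGGGTCGACCACGcgttg
Canx, chr11:50325794-50325823, minus strand: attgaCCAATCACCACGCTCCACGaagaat
Dnajc3, chr14:118937822-118937851, plus strand: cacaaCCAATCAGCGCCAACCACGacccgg
Hsp90b1, chr10:86705632-86705661, minus strand: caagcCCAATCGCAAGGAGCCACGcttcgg
Hsp90b1, chr10:86705527-86705556, plus strand: aactcaCCAATCGTGCCTCACCACGcactc
Hspa5, chr2:34772020-34772049, plus strand: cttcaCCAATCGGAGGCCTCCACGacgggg
Pdia6, chr12:17266486-17266515, plus strand: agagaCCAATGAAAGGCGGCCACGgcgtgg
Syvn1, chr19:6046527-6046556, plus strand: cgcaaCCAATCGGCGGTAGCCACGggaaca

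ATF4 pairs with C/EBP factors on a composite site known as the CARE, searched here as TGATGNAA on both strands. The letters occurred in 8 of the 36 promoters, against 3.97% of all promoters. Among the ATF4 targets, 7 of 15 held them (Asns, Atf3, Chac1, Nupr1, Slc7a11, Trib3 and Vldlr), and Herpud1 was the 8th. The 9 matches are shown in the direction of the element, with the element in capitals.
Asns, chr6:7693214-7693243, minus strand: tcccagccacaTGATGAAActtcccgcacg
Atf3, chr1:191183425-191183454, plus strand: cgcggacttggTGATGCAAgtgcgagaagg
Chac1, chr2:119351038-119351067, minus strand: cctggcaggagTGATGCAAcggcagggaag
Herpud1, chr8:94386306-94386335, minus strand: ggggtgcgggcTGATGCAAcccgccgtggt
Nupr1, chr7:126625562-126625591, plus strand: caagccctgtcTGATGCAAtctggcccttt
Slc7a11, chr3:50443661-50443690, minus strand: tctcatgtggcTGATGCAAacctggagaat
Slc7a11, chr3:50443642-50443671, plus strand: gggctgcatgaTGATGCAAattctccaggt
Trib3, chr2:152344028-152344057, plus strand: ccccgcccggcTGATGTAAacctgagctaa
Vldlr, chr19:27216809-27216838, minus strand: gctaggagcgcTGATGCAActattgctgct

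Herpud1 was the gene with letters of both arms: besides its CARE it held ERSE-II (ATTGG, any base, CCACG), present in 0.0365% of all promoters and in 1 of the 36 genes. The full cAMP response element (TGACGTCA), a palindrome found in 1.79% of promoters, was in Ppp1r15a alone. The letters TGACGTGG, a core of the XBP1 site that was in 0.676% of promoters, were in 0 of the 36. No match says only that these letters are not in this window. The bases before the start of these 2 genes are printed on the strand of the gene with the matches in capitals, so that a match on the opposite strand appears as its reverse complement.
Herpud1, chr8:94386279-94386428, plus strand: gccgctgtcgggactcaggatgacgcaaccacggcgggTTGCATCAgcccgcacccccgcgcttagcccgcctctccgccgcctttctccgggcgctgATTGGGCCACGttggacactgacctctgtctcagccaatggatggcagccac
Ppp1r15a, chr7:45526269-45526418, minus strand: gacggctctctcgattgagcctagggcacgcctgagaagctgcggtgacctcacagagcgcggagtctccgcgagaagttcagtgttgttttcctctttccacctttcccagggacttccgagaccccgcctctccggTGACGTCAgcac
Slc7a11, the cystine transporter, held 2 CAREs facing each other, 1 on each strand.
Slc7a11, chr3:50443615-50443763, minus strand: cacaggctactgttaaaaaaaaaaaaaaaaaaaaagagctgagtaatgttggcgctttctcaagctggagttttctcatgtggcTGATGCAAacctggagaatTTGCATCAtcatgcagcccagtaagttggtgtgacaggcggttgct
Crebzf, the gene that differed most between the groups (below), held none of these letters. The 98 bases printed end 53 bases before its RefSeq start, where an exon of another annotated transcript begins.
Crebzf, chr7:90442631-90442728, plus strand: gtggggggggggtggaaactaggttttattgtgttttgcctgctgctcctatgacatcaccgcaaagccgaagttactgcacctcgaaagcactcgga

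Whole reads recovered from the table came to 7875502 to 14166615 per library. Vehicle replicate 2 and CPF replicate 1 stood apart on the first principal component (29.1% of the variance), with scores of 31.5 and 33.0 against −13.7 to 6.12 for the other 10 libraries. Markers of brown adipocytes were present for 9 of 10 genes and general adipocyte markers for 10 of 10, as were 10 of 10 markers of preadipocytes and fibroblasts. Summed preadipocyte markers came to 58114 to 105676 normalized counts in vehicle and 53922 to 71058 in CPF. Of the macrophage markers 3 of 7 were in the table, with summed levels of 166 to 222 and 187 to 321 normalized counts, of the muscle markers 1 of 6 and of the endothelial markers 0 of 5. CPF replicate 1 was low for the adipocyte markers: their summed level was 66389 normalized counts there, the lowest of the CPF group, whose median was 105751. Summed brown adipocyte markers were 8704 in that library against a CPF median of 14600 (median 15059 in vehicle). In bulk RNA, fewer cells of a type and less RNA per cell cannot be told apart.

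Under vehicle, the most abundant of the 40 transcripts were chaperones (the plot of levels per kilobase). On the scale of normalized counts per kilobase of exon, which allows genes of different length to be compared, the median of the 6 vehicle libraries was 3307 for Calr (calreticulin, a lectin chaperone that also stores calcium), 2074 for Hspa5 (BiP, the ER Hsp70 that holds the sensors inactive) and 1725 for Hsp90b1 (GRP94). The next were the transcription factors Atf5, at 1477, and Atf4, at 1277. At the other end stood 3 ATF4 targets: Sesn2, an inhibitor of mTORC1, at 46.2, Cth, the enzyme that makes cysteine from cystathionine, at 26.3, and Slc7a11 at 10.7. Ddit3, whose protein CHOP is scarce in unstressed cells, stood 9th of the 40 at 937, above Asns (666) and Trib3 (657). The vehicle cells had spent 4 h in buffer and no group was kept in medium, so the part of the buffer in these levels was not tested. The PERK transcript Eif2ak3 was at 99.2. Neighbours in this order differed beyond their range over the vehicle libraries in 7 of 39 pairs. Among these were the steps from Eif2ak3 to Sesn2, from Sesn2 to Cth and from Cth to Slc7a11, so that the 3 scarcest genes on this scale stood apart. The ranges of Calr, Hspa5, Hsp90b1, Atf5 and Atf4 each overlapped the next. The length used counts every annotated exon base of a gene, 13922 for Slc7a11 and 2791 for Cth, so the order depends on the annotation. In normalized counts alone Slc7a11 was above Cth (vehicle medians 149 and 73.5).

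**Figure D1:**
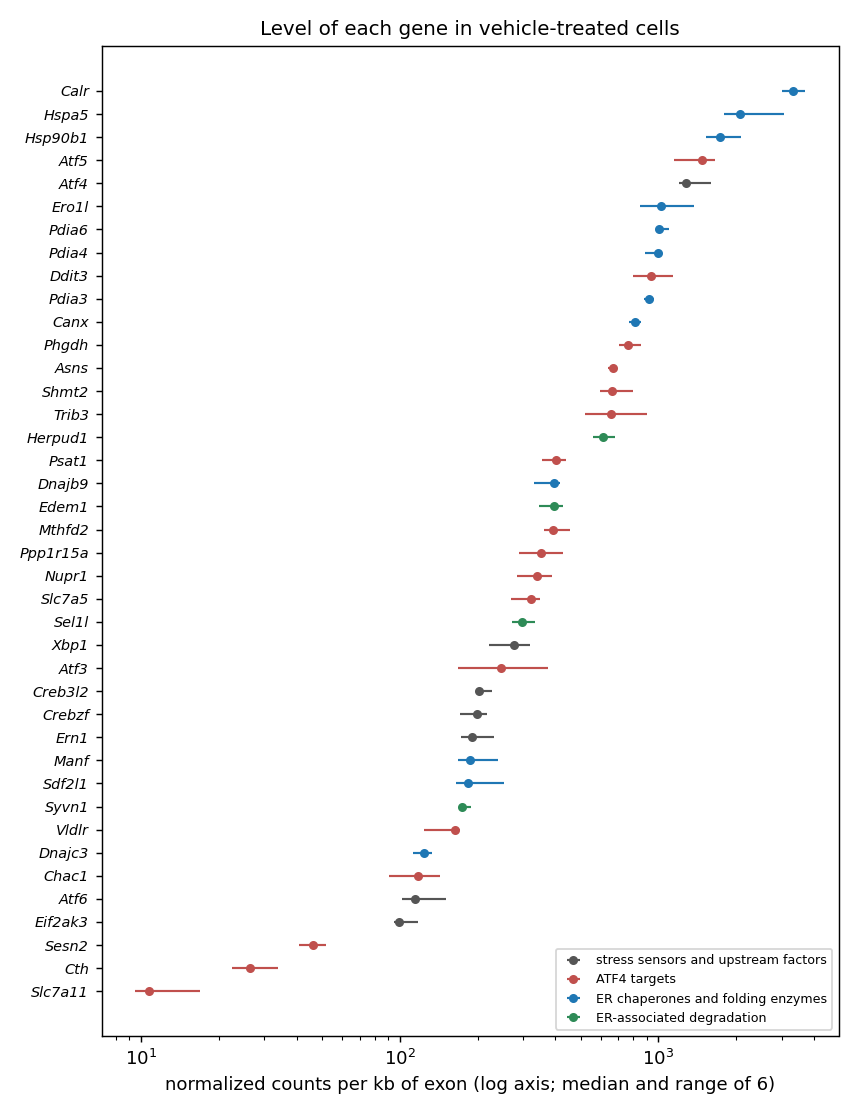
Level of each of the 40 genes in the 6 vehicle libraries, in normalized counts per kilobase of exon on a log axis (point, median; line, lowest to highest library; colour, list). Calr (3307), Hspa5 (2074) and Hsp90b1 (1725) are at the top and Slc7a11 (10.7) at the bottom.

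The comparison of CPF with vehicle asks whether this exposure altered the stress response at the level of mRNA. None of the 40 genes passed. By limma on log2 of the normalized count plus 1, with Benjamini-Hochberg adjustment over 13531 genes, 0 members had an adjusted p under 0.05, where 0% of all genes did, and the smallest adjusted p of a member was 0.569. By edgeR on recovered reads the count was also 0 members against 0% of genes. DESeq2 called 1 member, Crebzf (adjusted p = 0.0484), where it called 0.045% of 13340 genes. At an unadjusted p under 0.05, 1 member was higher with CPF (Dnajb9), where 2.77% of all genes were higher, and 3 were lower (Crebzf, Ddit3 and Ppp1r15a), where 4.55% of all genes were lower. The libraries of the 2 groups did not overlap for 1 member that was lower, Crebzf, against 0.34% of all genes, and for 0 members that were higher, against 0.126%.

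Crebzf (Zhangfei or SMILE) encodes a bZIP protein that pairs with other bZIP factors and acts as a corepressor of nuclear receptors. Its gene lies on chromosome 7 (90442729 to 90447994, plus strand, GRCm38). In vehicle it was at 714, 828.9 and 906 normalized counts (lowest, median and highest library), and with CPF at 567, 657 and 711. All CPF libraries thus lay below all vehicle libraries, although the nearest values of the groups, 714 and 711, were almost equal. The means were 823 ± 82.2 and 650.1 ± 50.6 (SD, n = 6 each). On the log2 scale CPF minus vehicle was −0.34 (SE 0.073, 95% interval −0.49 to −0.18). Its unadjusted p was 0.000298 by limma, the 4th smallest of all genes tested, with an adjusted p of 0.569. The exact permutation p, two-sided over 924 arrangements and unadjusted, was 0.00216, the smallest that 6 against 6 can give. The absence of overlap fixes this value, so it adds nothing to that observation. Within replicates 1 to 3 the log2 fold change was −0.27 (limma adjusted p = 0.9995) and within replicates 4 to 6, which were sequenced more deeply, −0.40 (adjusted p = 0.0375). Without vehicle replicate 2 and CPF replicate 1 it was −0.33 (adjusted p = 0.0513), and with library weights −0.38 (adjusted p = 0.0267).

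The sensors themselves differed less. Eif2ak3 was at 573, 598 and 706 normalized counts in vehicle and 487, 571 and 612 with CPF, so that the groups overlapped, and its log2 fold change was −0.15 (SE 0.071, limma adjusted p = 0.685). All 6 CPF libraries lay below the vehicle mean of this gene. Without vehicle replicate 2 and CPF replicate 1 its log2 fold change was −0.07. Within replicates 1 to 3 it was −0.25 and within replicates 4 to 6 it was −0.04. Atf4 was at 2836, 3011 and 3765 in vehicle and at 2624, 2937 and 3141 with CPF. The highest of these values, 3765 in vehicle replicate 3, stood well above the other vehicle libraries. With Atf4 the log2 fold change was −0.10 (SE 0.072, exact permutation p = 0.186), and −0.05 without that library. Total Xbp1 mRNA, which does not distinguish the spliced form, was at 719, 894 and 1037 in vehicle and 703, 746 and 1050.1 with CPF. Its highest value of all was in CPF replicate 1, and the log2 fold change was −0.14 (SE 0.11, exact permutation p = 0.286), or −0.21 without that library and −0.09 without vehicle replicate 3. Atf6 (0.07), Ern1 (0.03) and Creb3l2, a membrane-bound bZIP factor of secretory cells (0.02), had log2 fold changes above 0 and intervals that reached from −0.13 to 0.26 at the widest. Without vehicle replicate 2, Ern1 was at −0.01 and Atf6 at 0.04, and without vehicle replicate 3, Atf6 was at 0.13.

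**Figure D2:**
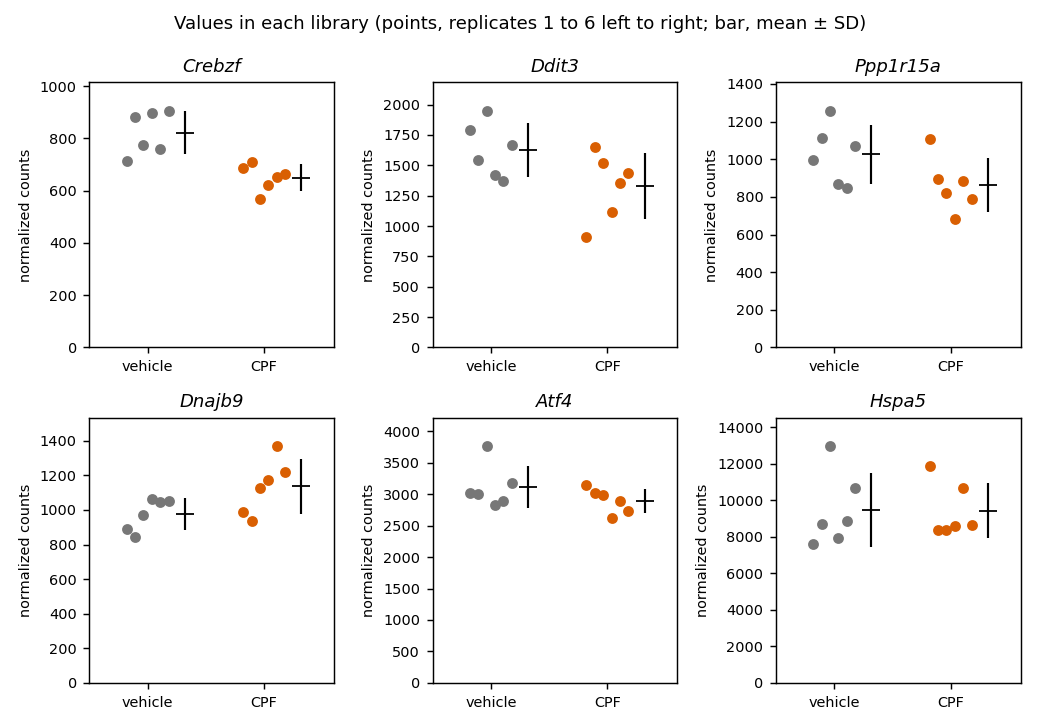
Normalized counts of 6 genes in each of the 12 libraries (points, replicates 1 to 6 from left to right; bars, mean ± SD of 6; axes from 0). The groups do not overlap for Crebzf (714 to 906 against 567 to 711) and overlap for the others.

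Of the 17 ATF4 targets, 11 had a log2 fold change below 0 and 6 above it, with a median of −0.10 (range −0.32 to 0.11), beside a median of −0.0015 and 49.6% above 0 over all genes tested. Ddit3 (CHOP, a transcription factor of prolonged stress) was at 1369, 1605 and 1949.7 normalized counts in vehicle and 913, 1394 and 1651 with CPF. The lowest value, 913, came from CPF replicate 1, the library low in adipocyte markers. The log2 fold change of Ddit3 was −0.30 (SE 0.13, exact permutation p = 0.0693) and was −0.20 without that library. A short stretch of Ddit3 (6.13% of its exon bases) overlaps a second annotated record of the gene, where reads could not be assigned to either.

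Ppp1r15a encodes GADD34, the phosphatase subunit that removes the phosphate from eIF2α and so closes the response. It was at 846, 1033 and 1258 normalized counts in vehicle and 684, 854 and 1107 with CPF. Of the CPF libraries 5 lay below the vehicle mean and the exception was replicate 1, the reverse of Ddit3. The log2 fold change was −0.25 (SE 0.11, exact permutation p = 0.0909), and −0.30 without vehicle replicate 2 and CPF replicate 1 (limma adjusted p = 0.220). Leaving out vehicle replicate 3 alone, which held the highest value (1258), gave −0.19, and leaving out vehicle replicate 2 alone gave −0.22.

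Amino acid transport and synthesis make up most of the other ATF4 targets. Slc7a5, the leucine carrier LAT1, was at 997, 1191 and 1295 in vehicle and 946, 1084 and 1143 with CPF, with every CPF library below the vehicle mean. Its log2 fold change was −0.14 (SE 0.069, limma adjusted p = 0.681). Without vehicle replicate 2, which held the highest value (1295), it was −0.12. Within replicates 1 to 3 it was −0.22 and within replicates 4 to 6 it was −0.07. Cth was scarce, at 62.8, 73.5 and 94.5 in vehicle and 51.3, 64.2 and 75.9 with CPF, and its log2 fold change of −0.24 had an SE of 0.13 (adjusted p = 0.700). Asns, asparagine synthetase and a standard readout of the amino acid response, differed least of all the targets. It was at 1748, 1822 and 1896 in vehicle and 1628, 1818 and 2000.2 with CPF. Its log2 fold change was 0.00 (SE 0.054, 95% interval −0.12 to 0.12, exact permutation p = 1). Serine and one-carbon enzymes were on either side of 0: Psat1 −0.13, Mthfd2 −0.05, Phgdh 0.01 and Shmt2 0.05. Without CPF replicate 1, Psat1 was at −0.05 and Phgdh at 0.13 (limma adjusted p = 0.285). Leaving out vehicle replicate 3 put Mthfd2 at −0.01 and Shmt2 at 0.10, and leaving out vehicle replicate 2 put Shmt2 at 0.01 and Mthfd2 at −0.08. For Phgdh, 47.8% of the 50-base stretches also occur in other genes, mostly 1 processed copy, so its value is uncertain.

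Trib3, a pseudokinase that CHOP and ATF4 induce and that restrains ATF4 in turn, was at 1108, 1396 and 1925 normalized counts in vehicle and 1037, 1223 and 1526 with CPF. The groups overlapped over most of their range, and the log2 fold change was −0.17 (SE 0.13, exact permutation p = 0.284). It was −0.08 without vehicle replicate 3, the library with the highest value. The transcription factor Atf3 had a larger difference and a wider interval (−0.32, −0.73 to 0.09), and was at −0.20 without vehicle replicate 3. Of the rest, Sesn2 (−0.14), Atf5 (−0.10) and the chromatin-associated stress protein Nupr1 (−0.06) were below 0. Slc7a11 (0.03), the glutathione-degrading enzyme Chac1 (0.03) and the lipoprotein receptor Vldlr (0.11) were above it. Several of these small values rested on 1 library: without CPF replicate 1, Sesn2 was at −0.25, Atf5 at 0.01, Slc7a11 at −0.11 and Chac1 at −0.10, and without vehicle replicate 2, Vldlr was at 0.04 and Nupr1 at −0.02.

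Among the 12 chaperones and folding enzymes 5 had a log2 fold change above 0 and 7 below it, with a median of −0.0053 (range −0.20 to 0.21). Dnajb9 (ERdj4, a BiP cochaperone that also restrains IRE1α) was at 843, 1008 and 1064 normalized counts in vehicle and 938, 1150.1 and 1369 with CPF. Of the CPF libraries 5 were above the vehicle mean, and the groups overlapped. The log2 fold change was 0.21 (SE 0.089, limma adjusted p = 0.654, exact permutation p = 0.0649). Replicates 1 to 3 alone gave 0.18 (adjusted p = 0.9995) and replicates 4 to 6 alone gave 0.25 (adjusted p = 0.108). Of the 50-base stretches of Dnajb9, 5.50% also occur in a pseudogene.

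Dnajc3 (P58IPK, a cochaperone first known as an inhibitor of eIF2α kinases) was at 579, 641 and 682 in vehicle and 603, 716 and 734 with CPF. It too was above the vehicle mean in 5 CPF libraries, and CPF minus vehicle was 0.13 on the log2 scale (SE 0.063, limma adjusted p = 0.685). Sdf2l1, an ER protein that joins the BiP cycle, went the other way. It was at 183, 203 and 279.8 in vehicle and 158, 186 and 204 with CPF, with all 6 CPF libraries below the vehicle mean. That mean rests in part on vehicle replicate 2 (279.8), and the log2 fold change was −0.20 (SE 0.10, adjusted p = 0.696), or −0.12 without that library. The disulfide isomerase Pdia4 was at 2134, 2399 and 2488 in vehicle and 2299, 2470.4 and 2603 with CPF (log2 fold change 0.06, SE 0.058, adjusted p = 0.812).

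Hspa5, the usual measure of ER stress, was at 7577, 8773 and 12959 normalized counts in vehicle and 8371, 8593 and 11889 with CPF. Both groups were spread widely, by 1 or 2 high libraries in each: replicates 3 and 6 in vehicle, replicates 1 and 5 with CPF. Hspa5 thus had a log2 fold change of 0.01 (SE 0.13, 95% interval −0.27 to 0.28, exact permutation p = 0.970). Its sign changed with several ways of processing, so no direction is given. Tighter values came from Pdia6 and Pdia3, disulfide isomerases, and from Canx, the membrane-bound partner of calreticulin. Their log2 fold changes were −0.00, −0.01 and −0.01, and the 3 intervals lay within −0.13 to 0.11. Calr (−0.04), Hsp90b1 (−0.02), the secreted stress factor Manf (−0.07) and the disulfide oxidase Ero1l (0.09) had intervals that held 0. Without vehicle replicate 3, Manf was at −0.02 and Ero1l at 0.16, and without vehicle replicate 2, Calr was at −0.01 and Ero1l at 0.02.

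The 4 genes of ER-associated degradation had log2 fold changes from −0.08 to −0.00, with a median of −0.05. Herpud1, a ubiquitin-like membrane protein of the degradation complex, was at 1306, 1428 and 1585 normalized counts in vehicle and 803, 1454 and 1621 with CPF. The low value came from CPF replicate 1, and the other 5 CPF libraries spanned 1403 to 1621. The log2 fold change was −0.07 (SE 0.14, exact permutation p = 0.898) and was 0.08 without that library, so its sign rests on 1 library.

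Edem1, a lectin that hands misfolded glycoproteins to degradation, was at 2232, 2549 and 2768 in vehicle and 2012, 2428 and 2756 with CPF (−0.08, SE 0.073, limma adjusted p = 0.807), and its log2 fold change was −0.04 without CPF replicate 1. Syvn1, the ubiquitin ligase HRD1, was at 834, 846 and 913 in vehicle and 734, 838 and 938 with CPF (−0.03, SE 0.061, adjusted p = 0.945). Sel1l, the adaptor of HRD1, was at 2326, 2539.8 and 2854 in vehicle and 2389, 2499 and 2922 with CPF. Sel1l had a log2 fold change of −0.00 (SE 0.065, adjusted p = 0.997), and those of Sel1l, Syvn1 and Herpud1 changed sign when single libraries were left out.

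**Figure D3:**
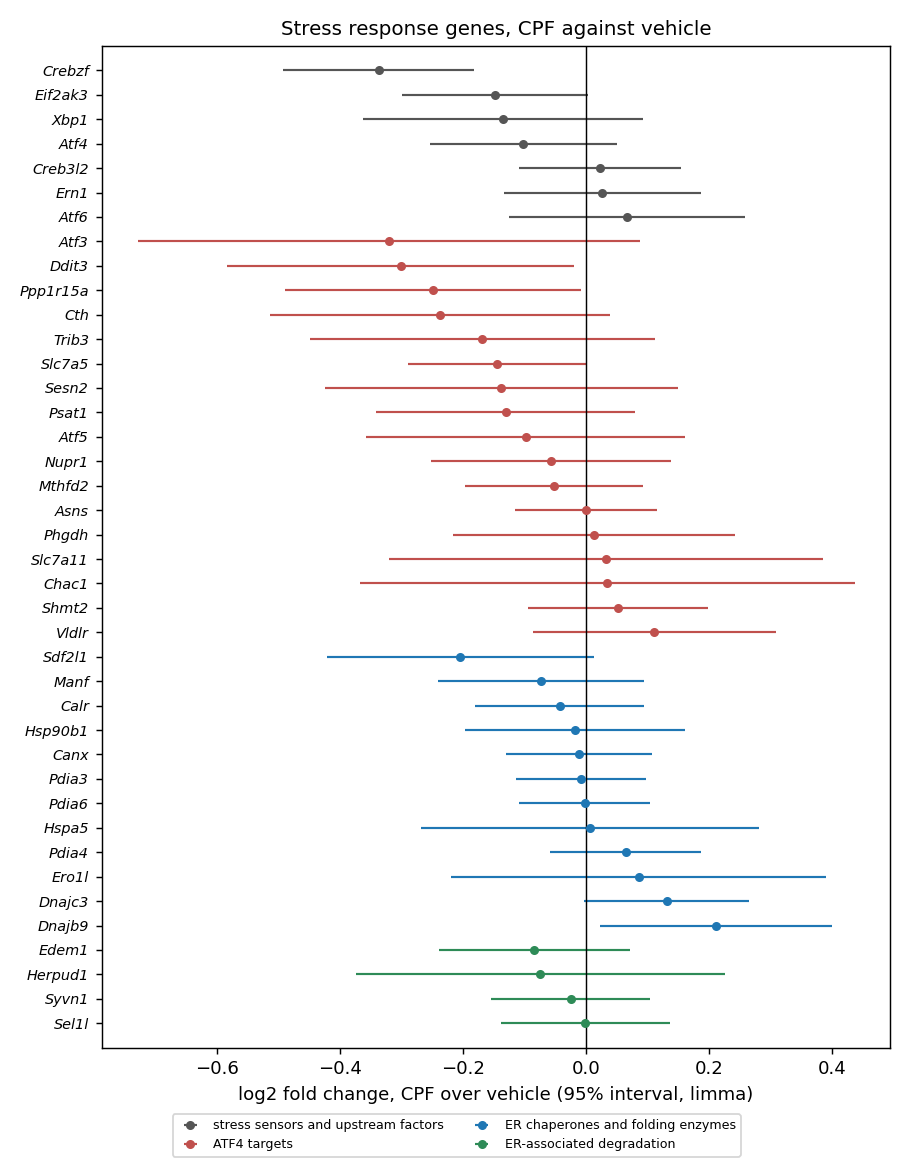
Log2 fold change of each of the 40 genes, CPF over vehicle, with its 95% interval from limma, ordered within the 4 lists (colours). The intervals of Crebzf, Ddit3 and Ppp1r15a lie below 0 and that of Dnajb9 above it, before adjustment over genes.

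Side by side, the ATF4 targets had the lower median (−0.10 against −0.0053 for the chaperones and −0.05 for degradation), and the sensors and upstream factors were like them at −0.10 (3 above 0, 4 below). The medians of ATF4 targets and chaperones were −0.11 and 0.004 within replicates 1 to 3, and −0.07 and −0.009 within replicates 4 to 6. Without vehicle replicate 2 and CPF replicate 1 they were −0.06 and −0.03. In all, 26 of the 40 genes were below 0 and 14 above it. Cell type markers moved beside them: log2 fold changes were below 0 for 9 of 10 preadipocyte and fibroblast markers (median −0.16) and 8 of 9 brown adipocyte markers (median −0.09), and above 0 for 9 of 10 general adipocyte markers (median 0.10). Otop1 (−0.74) and Ucp1 (−0.75) had the lowest fold changes of the brown adipocyte markers, and no marker passed by limma after adjustment. The part of the markers in the medians of the stress lists was not tested. These counts describe 6 libraries against 6 and no test was made of a list.

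A list level, the mean over the genes of a list of log2 normalized count minus the median of the gene over the 12 libraries, shows the spread behind these medians. For the ATF4 targets it ran from −0.07 to 0.20 in vehicle (median 0.04) and from −0.16 to 0.06 with CPF (median −0.05), so the groups overlapped. For the chaperones it ran from −0.10 to 0.15 in vehicle and from −0.04 to 0.13 with CPF, with medians of 0.003 and −0.004. Vehicle replicate 3 was the highest vehicle library and CPF replicate 5 the highest CPF library for all 4 lists. CPF replicate 1 was at 0.10 for the chaperones and at −0.24 for degradation, where the low value is largely that of Herpud1. On the same scale the cell type markers were uneven too. Preadipocyte and fibroblast markers were at 0.30 in vehicle replicate 2 (vehicle median 0.04). In CPF replicate 1 brown adipocyte markers were at −0.82 (CPF median −0.01) and general adipocyte markers at −0.84 (CPF median 0.09).

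**Figure D4:**
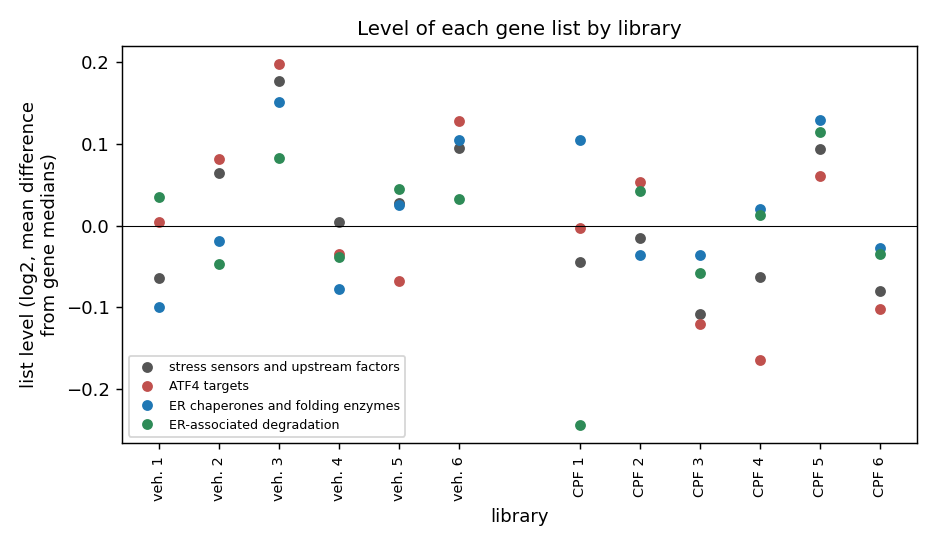
Level of the 4 gene lists in each library (log2, mean difference from the gene medians over 12 libraries; each point is 1 list in 1 library). All 4 lists are highest in vehicle replicate 3 within the vehicle group and in CPF replicate 5 within the CPF group, and the ranges of the groups overlap.

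Single libraries moved many of these genes together (the map of genes by library). Vehicle replicate 3 had the highest value of the 12 for 12 of the 40 genes and the lowest for 0, where it was highest for 9.08% of all genes tested. The 12 came from all 4 lists: Atf4 and Ern1 among the sensors and upstream factors, Atf3, Ddit3, Mthfd2, Ppp1r15a, Shmt2 and Trib3 among the ATF4 targets, Hsp90b1, Hspa5 and Manf among the chaperones, and Edem1 among the degradation genes. CPF replicate 5 was highest for 7 genes (5.29% of all genes) and lowest for 1. Vehicle replicate 1 was lowest for 5 genes, Hspa5, Hsp90b1, Manf, Ero1l and Atf6 (6.84% of all genes), and highest for 0 (6.30%). CPF replicate 1 was at both ends, highest for 8 genes and lowest for 9, as it was for 18.4% and 22.2% of all genes.

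**Figure D5:**
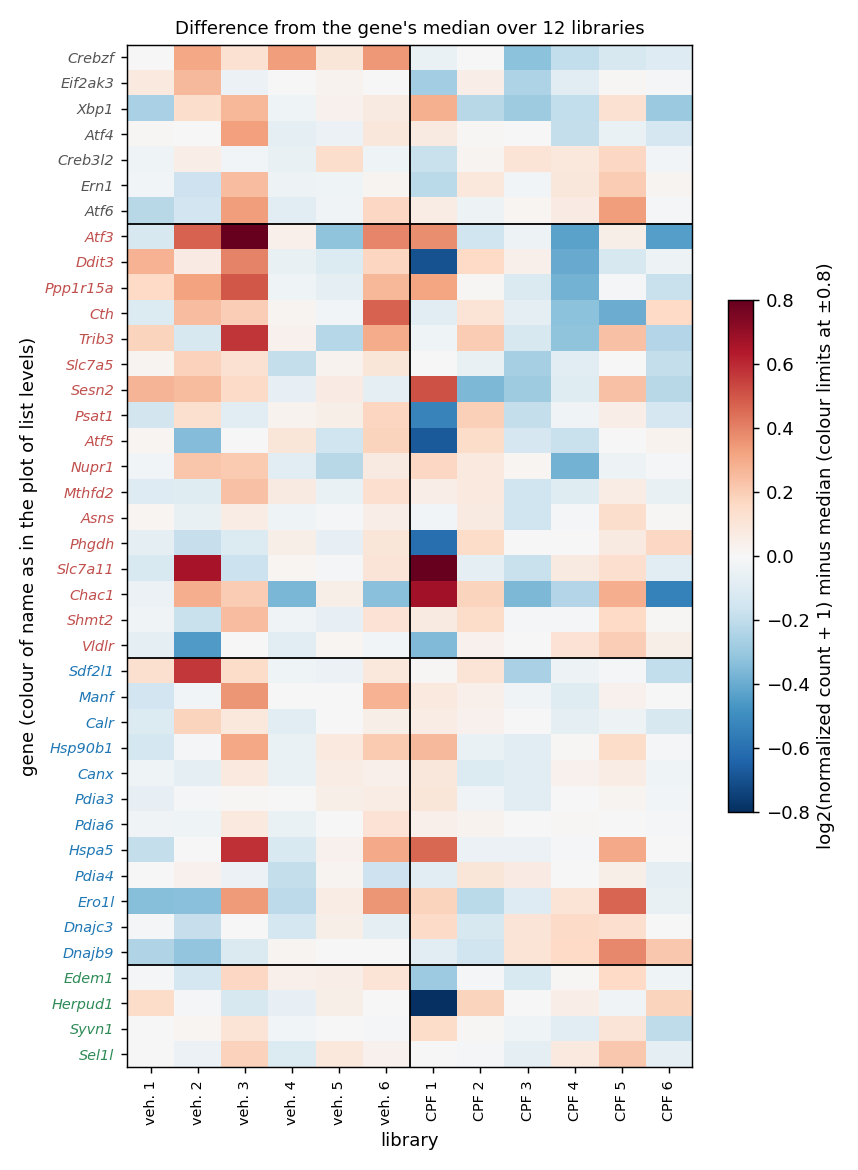
Each of the 40 genes (rows, grouped by list) in each of the 12 libraries (columns), as log2 of the normalized count plus 1 minus the median of the gene, with colours limited at 0.8 in either direction. Vehicle replicate 3 is high for 12 genes, and CPF replicate 1 holds 8 of the highest and 9 of the lowest values.

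The spread between libraries of a group, pooled over the groups, had a median of 0.163 on the log2 scale for the 40 genes (0.172 for all genes tested), against 0.0378 from counting alone. It ran from 0.0506 for Pdia6 to 0.375 for Chac1. With 6 libraries per group this left room for small changes. The 95% interval lay within 0.5 log2 units of 0 for 37 of the 40 genes (77.7% of all genes tested) and within 0.3 for 23 (50.7%), and over all 40 the limits were −0.73, for Atf3, and 0.44, for Chac1. The intervals of all 40 lay within 1 log2 unit, as did those of 97.2% of all genes tested.

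Set against the promoter letters shown above, the 7 genes with an ERSE had log2 fold changes from −0.04 to 0.13 (median −0.01, 2 above 0). The 8 with a CARE had −0.32 to 0.11 (median −0.03, 4 above 0). Of these 15, 0 had an unadjusted p under 0.05, where 2.77% of all genes were higher and 4.55% lower, so the count says nothing particular about them. Of the 4 genes that did, Ppp1r15a held the cAMP response element and Crebzf, Ddit3 and Dnajb9 held none of the letters searched.

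Genes of the wider pathway showed the same absence of calls. Of 121 such genes 118 were tested, 61 of them with a log2 fold change above 0, with a median of 0.0019, and 0 passed by limma after adjustment. At an unadjusted p under 0.05, 2 were higher (Spcs1, a subunit of the signal peptidase, 0.14, and Wfs1, wolframin, 0.22) and 1 was lower (Jdp2, a bZIP partner of ATF3, −0.37), beside 2.77% higher and 4.55% lower among all genes, so these counts are not above the background. Further ATF4 targets leaned below 0 (15 of 23, median −0.05), with Slc7a1, an arginine carrier, at −0.23. So did the cytosolic aminoacyl-tRNA synthetases, which ATF4 also induces (9 of 12, median −0.04). Their smallest p-values were those of Cars (−0.11, adjusted p = 0.709) and Mars (−0.12, adjusted p = 0.711). For both of these lists the level was the highest of the 12 libraries in vehicle replicate 3 (0.26 and 0.23). The further ATF4 targets ran from −0.07 to 0.26 in vehicle and from −0.08 to 0.19 with CPF. The synthetases ran from −0.05 to 0.23 and from −0.08 to 0.09. How far the lean rests on vehicle replicate 3 was not tested. Further genes of ER-associated degradation leaned above 0 (15 of 17, median 0.03), with Nploc4 at 0.10 and Rnf139 at −0.15. The 4 described above were all below 0 in the main fit. Their median was −0.016 without CPF replicate 1 and 0.023 in replicates 4 to 6. Genes of the mitochondrial unfolded protein response were above 0 in 8 of 10 (median 0.08), among them the proteases Afg3l2 (0.12) and Clpp (0.12). The other lists were balanced: eIF2 and its kinases had 7 of 12 above 0, further folding and translocation genes 13 of 31, and site proteases with other regulators 7 of 13.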

How the data were processed

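RNA from 12 libraries was prepared with a directional kit. The authors used Trimmomatic for trimming and HISAT2 for alignment to the Ensembl GRCm38 mouse genome, counted exonic reads per gene by strand with htseq-count and normalized the counts with DESeq2. Program versions and the rule for keeping genes were not given in the sources used here. The deposited values are thus a signal in normalized counts, 1 per gene and library. The table also holds 12 columns of ratios per library and the fold changes and p-values of the authors' own comparison, deposited by the authors and not used here. Values were whole multiples of 1 read per library, within 0.01 read, so that reads were recovered.

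Genes with a mean of at least 10 (13531) were compared by limma 3.58.1 in R 4.3.3 (trend and robust, two-sided, no covariates) on log2 of the value plus 1, with Benjamini-Hochberg adjustment over all of them and a threshold of 0.05. Intervals are 95% and, with reads not being independent molecules, counting spreads cover counting error only. Exact permutation tests took all 924 arrangements. Alternatives were edgeR 4.0.16, DESeq2 1.42.0 (both on the reads), TMM rescaling, a filter at a mean of 50 or none, a pseudocount of 0.1 or 10, weighted libraries, a term for the replicate number or for replicates 1 to 3 against 4 to 6, fits within these sets, and libraries left out. The limma, edgeR and DESeq2 fits were tested on simulated data first. Values by group are given for Atf4, Ddit3, Asns, Trib3, Xbp1, Hspa5 and Herpud1, for the up to 4 genes per list with the lowest p and for those with an unadjusted p under 0.05, and up to 2 genes of each wider list are named. The members, lists and tests were chosen with earlier results of these data known. Exon lengths, overlaps and shared 50-base stretches come from GENCODE M21, and promoters from RefSeq (GRCm38.p6).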

Additional observations from a re-analysis of the deposited data

Results flagged for a closer look

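Of 88 groups of 6 libraries (40 genes and 4 list levels in 2 groups), 9 held 1 library far from the other 5 by Dixon's ratio, where chance gives about 1 in 20. Vehicle replicate 2 and CPF replicate 1, which stand apart on the first principal component, account for 3 each. In vehicle replicate 2, Sdf2l1 was at 279.8 normalized counts (others 183 to 209), Slc7a11 at 236 (132 to 161) and Vldlr at 1245 (1607 to 1721). In CPF replicate 1, Herpud1 was at 803 (1403 to 1621), Phgdh at 1317 (1990.2 to 2242) and Slc7a11 at 261 (132 to 164). In vehicle replicate 3, Atf4 was at 3765 (2836 to 3184) and Syvn1 at 913 (834 to 854). In CPF replicate 5, Atf6 was at 1390.2 (1070.0 to 1155).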

How the results depend on the processing

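By limma 0 members passed after adjustment, and the same held under every alternative but 3: DESeq2, library weights and replicates 4 to 6 alone each gave 1 lower member, Crebzf. Crebzf was below 0 under all 25 alternatives (−0.40 to −0.27), with an adjusted p of 0.0267 to 0.9995, and leaving out single libraries moved it from −0.38 to −0.30 (adjusted p 0.0636 to 0.923). Members higher at an unadjusted p under 0.05 numbered 3 with library weights, 0 in replicates 1 to 3, 3 in replicates 4 to 6, 2 without vehicle replicate 2 and CPF replicate 1 together, and 0 to 3 with single libraries left out. Members lower numbered 0 in replicates 1 to 3, 1 in replicates 4 to 6, and 1 to 5 with single libraries left out. Leaving out CPF replicate 1 gave 3 higher (Dnajb9, Phgdh and Vldlr) and 5 lower. Whether equal replicate numbers pair the libraries was not settled. Of the 6 correlations of deviations 4 exceeded 0.1 (0.11 to 0.26). Those of replicates 1 and 2, which hold the libraries that stand apart, were −0.21 and 0.030. With a replicate block the unadjusted p was under 0.05 for 2 higher members and 6 lower ones, with a smallest adjusted p of 0.494 (Dnajb9 went to an unadjusted p of 0.00267). With a term for replicates 1 to 3 against 4 to 6 it was so for 1 higher member and 4 lower ones. There the smallest adjusted p was 0.470 and the limma unadjusted p of Dnajb9 was 0.00302. Among the genes with values by group, those whose sign changed had main values near 0, the furthest being Herpud1 at −0.07. Other members changed sign too, such as Atf5, at −0.10 in the main fit and 0.01 without CPF replicate 1. Asns was −0.00064 with TMM, −0.043 in replicates 1 to 3, −0.0065 without both libraries and −0.027 to 0.033 with single libraries left out. Herpud1 was 0.054 with weights, −0.22 in replicates 1 to 3, 0.073 in replicates 4 to 6 and 0.075 without both libraries. With single libraries left out it was −0.13 to 0.077. Hspa5 was −0.0059 with edgeR, −0.0053 with DESeq2, −0.016 with weights, −0.010 in replicates 1 to 3, −0.084 without both libraries and −0.064 to 0.10 with single libraries left out. Sel1l was 0.026 with weights, −0.073 in replicates 1 to 3 and 0.071 in replicates 4 to 6. With single libraries left out it was −0.040 to 0.031, and Syvn1 was −0.057 to 0.014. The cause of these shifts was not tested. The median of the ATF4 targets stayed below 0 under the 25 alternatives (−0.13 to −0.056), while that of the chaperones ran from −0.030 to 0.021 and that of degradation from −0.11 to 0.023. For 36 of the 40 genes the spread between libraries was over 2 times that of counting. The part of sequencing depth in this spread was not tested.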
